A study of Mus musculus with 6 samples.

Results

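The ADAM and ADAMTS proteases are metalloproteinases that cut proteins at the cell surface and in the extracellular matrix. The members were all probe sets whose platform annotation gives a single gene symbol that starts with Adam, Adamts or Adamtsl followed by a number, and Adamdec1. The rule took 83 of 45037 probe sets, controls aside, which stand for 49 of 18193 genes named by 1 symbol. Of these genes 29 are ADAMs, 15 are ADAMTS proteases and 5 are ADAMTS-like proteins.

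Total RNA of whole aorta from mice aged 32 weeks was measured on 6 single-colour oligonucleotide arrays. The wild-type group held 3 arrays from C57BL/6J mice. The apoE-/- group held 3 arrays from mice of the same C57BL/6J background that lack apolipoprotein E, a strain known for high plasma cholesterol and atherosclerotic plaques. No treatment or diet is given in the labels, and they do not say whether an array stands for 1 animal, a pool or a repeat preparation, so the p-values rest on array-to-array spread that may be only technical. The comparison addresses how expression in the diseased aorta differs from that in the wild-type vessel.

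ADAMs are anchored in the membrane. Those with an intact catalytic site release the outer domains of receptors, adhesion molecules, cytokines and growth factors, a step called shedding, whereas others lack it and act in cell adhesion, and many are made mainly in the testis or epididymis. ADAMTS proteases are secreted and carry thrombospondin motifs that bind matrix. One group cleaves large proteoglycans such as versican and aggrecan, another trims procollagens, and ADAMTS-like proteins resemble them without the protease domain. In the vessel wall these enzymes are known for turnover of the matrix and for release of inflammatory mediators.

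Array medians lay between 178 and 195.5 intensity units. Pairs of arrays correlated at r = 0.966 to 0.972 within a genotype and at 0.950 to 0.968 between genotypes over all probe sets. Apoe, the disrupted gene, gave 5686, 5625 and 4309 units on the wild-type arrays and 239.5, 56.3 and 462.1 units on the apoE-/- arrays, so the signal matched the labels. All 8 smooth muscle markers lay above the filter on low values, but so did all 8 endothelial, 8 fibroblast and 10 macrophage markers. The count therefore does not identify the tissue. Fat genes were bright too, with the brown fat gene Ucp1 between 4604 and 11092 units. The 4 tested adipocyte markers summed to 47408 units on wild type replicate 2 and to between 26313 and 37173 units on the other arrays. The wild type replicate 3 array stood apart in skeletal muscle genes, whose 7 tested markers summed to 22083 units there and to between 425.9 and 1031.3 units on the other arrays.

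Of the 29 member genes bright enough to be tested, 1 was called higher and 0 lower in apoE-/- aorta. Calls are at a Benjamini-Hochberg adjusted p under 0.05 in limma over all 13052 genes tested, on log2(intensity + 16). Over all those genes 3.19% were called higher and 0.467% lower, 3.65% in either direction, so 1 of 29 members, or 3.45%, is a share near the background. The 29 had a median log2 change of -0.01 beside -0.05 for the 13052 genes. In 25 of the 29 the change lay within 0.5 log2 of no change. At an unadjusted p under 0.05 there were 5 members higher and 3 lower, or 27.6% of them, where all genes gave 18.4%. The called gene was Adam8, the sheddase of myeloid cells. Adamts4, a protease of versican and aggrecan, had a probe set that passed only in a fit without the filter, and the ADAMTS-like gene Adamtsl2 passed only without wild type replicate 1.

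Promoters of 3 members are shown, Adam8 for its called rise and Adamtsl2 for a difference that depended on 1 array. Adam10, which was not called, was taken for a positive difference on each probe set above the filter. Among members with several such probe sets this also held for Adam12, Adam17, Adam19 and Adamts6. The sequences are the 250 bases before the start of each gene, 5′ to 3′, from RefSeq on build GRCm38.p6. There 24 of the 49 member genes had an entry. Capitals mark matches on either strand to 5 motifs. The GC box was searched as GGGCGG and the CCAAT box as its name spells. The TATA box was searched as TATAAA. For AP-1 the letters were TGANTCA. The core of PU.1 sites was searched as GAGGAA. A pair of neighbouring GC boxes in Adam10 shares 1 base.
Adam8, chr7:139992563-139992812, minus strand: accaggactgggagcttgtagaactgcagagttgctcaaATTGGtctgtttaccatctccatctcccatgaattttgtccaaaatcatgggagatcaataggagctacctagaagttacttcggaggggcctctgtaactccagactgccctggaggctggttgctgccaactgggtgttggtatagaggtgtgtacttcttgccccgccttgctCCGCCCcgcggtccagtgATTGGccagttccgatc
Adam10, chr9:70678732-70678981, plus strand: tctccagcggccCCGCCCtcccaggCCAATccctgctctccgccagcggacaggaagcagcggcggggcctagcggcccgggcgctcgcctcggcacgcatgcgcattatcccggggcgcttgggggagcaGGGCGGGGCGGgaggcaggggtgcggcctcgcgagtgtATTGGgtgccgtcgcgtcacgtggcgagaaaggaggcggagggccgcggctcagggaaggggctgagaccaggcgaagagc
Adamtsl2, chr2:27079129-27079378, plus strand: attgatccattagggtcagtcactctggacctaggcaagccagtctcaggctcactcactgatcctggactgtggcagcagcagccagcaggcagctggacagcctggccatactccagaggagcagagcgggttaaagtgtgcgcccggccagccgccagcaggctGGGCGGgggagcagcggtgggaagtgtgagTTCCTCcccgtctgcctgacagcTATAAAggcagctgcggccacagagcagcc

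The Adam8 window holds 6 CpG dinucleotides, the median of all 32851 windows of this length, and 52.8% G and C. It has 1 GC box and 2 CCAAT boxes, and no letters matching the TATA, AP-1 or PU.1 motifs. The Adam10 window holds 29 CpG dinucleotides, more than 93.2% of all windows, with 3 GC boxes and 2 CCAAT boxes. The Adamtsl2 window holds 8 CpG dinucleotides, 1 GC box, 1 PU.1 core and a TATA box that begins 30 bases before the start. Over all windows a GC box is present in 32.7%, a CCAAT box in 33.8%, TATAAA in 12.4%, the AP-1 motif in 6.75% and the PU.1 core in 23.3%. A match describes these letters and is no evidence that a factor binds.

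Among the sheddases, 9 of 10 listed genes were tested, with 1 called higher and 0 lower, where 3.19% of all genes were called higher. In 7 of the sheddases the change was positive, where 5379 of all 13052 genes tested had a positive change. The median of the sheddases was 0.22 in log2. Adam8 was read by a single probe set. It gave 202.9, 198.7 and 268.8 units on the wild-type arrays and 1193, 710.8 and 1652 units on the apoE-/- arrays. Every apoE-/- array lay far above every wild-type array, and apoE-/- replicate 2 was the lowest of the 3. The means were 223 ± 39.3 and 1185 ± 471 units (SD, n = 3), a ratio of 5.30. The log2 change was 2.26 ± 0.28 (SE, limma adjusted p = 0.0041), with a 95% interval from 1.63 to 2.89.

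Macrophage markers moved with Adam8. Of 10 listed markers 8 were called higher, where all genes gave 3.19%, and the median was 1.36 in log2. In 9 of 10 the groups did not overlap, where all genes tested gave 24.7%. The count called ran from 6, as without the intensity trend, to 9, as with quantile normalization. Itgam had a wild-type mean of 122.8 units, just under the filter at 124 units, and was kept through its apoE-/- values. The summed intensity of the 10 markers was 11970, 12411 and 11758 units in wild type and 39113, 25912 and 40579 units in apoE-/-. The 3 apoE-/- arrays stood in the same order for the marker sum as for Adam8, with replicate 3 highest and replicate 2 lowest. Not every marker kept this order, since Lgals3 and Csf1r were highest on apoE-/- replicate 1 and Cd163 was lowest there. The other markers of the list kept it. Lgals3, a lectin of lipid-laden macrophages, had the largest change of the list at 3.46, and Cd68, a macrophage lysosomal protein, rose by 2.87. Csf1r, the receptor for macrophage colony-stimulating factor, and Cd163, a haemoglobin scavenger receptor of resident macrophages, were not called, at 0.50 and 0.02. No marker of the list was at 0 on any array. The part of macrophage number in the Adam8 rise was not tested, and in whole aorta more cells of a type and more RNA per cell cannot be told apart.

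**Figure D1:**
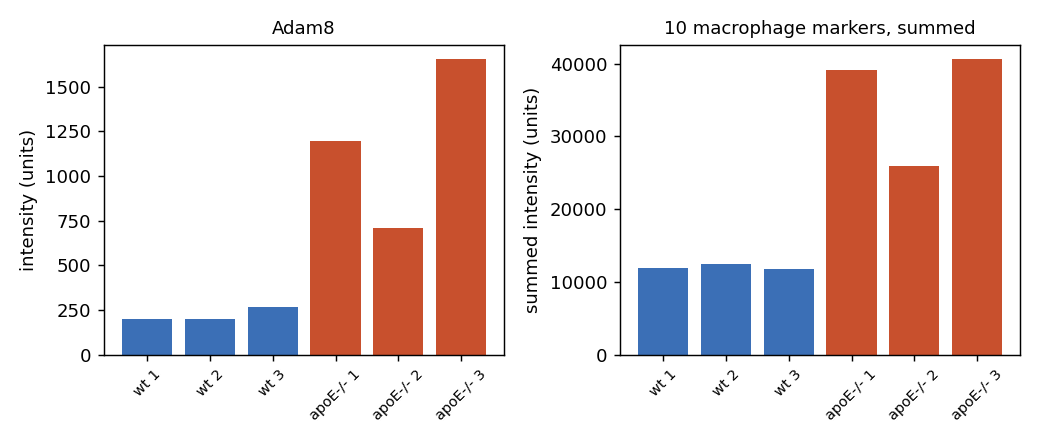
Intensity of Adam8 (left) and the summed intensity of the 10 macrophage markers (right) on each array, in intensity units, with wild type in blue and apoE-/- in orange. All 3 apoE-/- bars are above all 3 wild-type bars in both panels, and apoE-/- replicate 2 is the lowest of its group in both.

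Adam10, the sheddase that cuts Notch receptors and many adhesion molecules, was read by 4 probe sets, 3 of them above the filter. The brightest gave 3737, 2929 and 3007 units in wild type and 3739, 4109 and 4586 units in apoE-/-. The groups did not overlap, but the lowest apoE-/- array (3739.2 units) was almost level with the highest wild-type array (3737.3 units). The log2 change was 0.36 ± 0.12 (SE, limma adjusted p = 0.161), with a 95% interval from 0.09 to 0.64. The other 2 probe sets above the filter gave 0.29 and 0.84, the latter without overlap, from 217 ± 64.3 to 393 ± 37.6 units (SD, n = 3). None of the 3 passed the test when each probe set was tested on its own, a fit that called 2.51% of all probe sets higher, with adjusted p = 0.187, 0.348 and 0.0794 in limma. The probe set below the filter, at a mean of 76.2 units, had a change of -0.71.

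Adam9, a widely made sheddase, gave 4439, 4564 and 4333 units in wild type and 5520, 4665 and 5537 units in apoE-/-. The groups did not overlap, although apoE-/- replicate 2 lay close to the wild-type arrays. Its log2 change was 0.23 ± 0.09 (SE, limma adjusted p = 0.236). Adam17, which releases tumour necrosis factor and its receptors, had 3 probe sets above the filter with changes of 0.25, 0.39 and 0.04, and its groups overlapped on each (limma adjusted p = 0.415 for the brightest). Adam15, a sheddase of endothelium and smooth muscle, gave 2642 ± 224 and 2618 ± 99.6 units (SD, n = 3). Its log2 change was -0.01 ± 0.09, with a 95% interval from -0.22 to 0.20, and its sign turned with the centring of the arrays.

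Adam33, a sheddase of smooth muscle and fibroblasts, gave 1336, 1095 and 1488 units in wild type and 912.5, 1214 and 846.6 units in apoE-/-. The groups overlapped through apoE-/- replicate 2, and the log2 change was -0.40 ± 0.16 (SE, limma adjusted p = 0.241). It was the only sheddase tested with a change below -0.1. Adam12 and Adam19, the meltrins of muscle and mesenchymal cells, had log2 changes of 0.22 and 0.05, with overlapping groups on both probe sets of each gene. Adamdec1, a secreted relative made by dendritic cells and macrophages, read between 112.5 and 148.9 units on all 6 arrays, just above the filter, and its change was 0.08. Adam28, a sheddase of lymphocytes and epithelium, fell under the filter. Its brighter probe set read 119.9, 138.9 and 110.3 units in wild type and 77.8, 84.9 and 83.3 units in apoE-/-, without overlap, and in the fit of all probe sets its limma log2 change was -0.50 (adjusted p = 0.402).

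**Figure D2:**
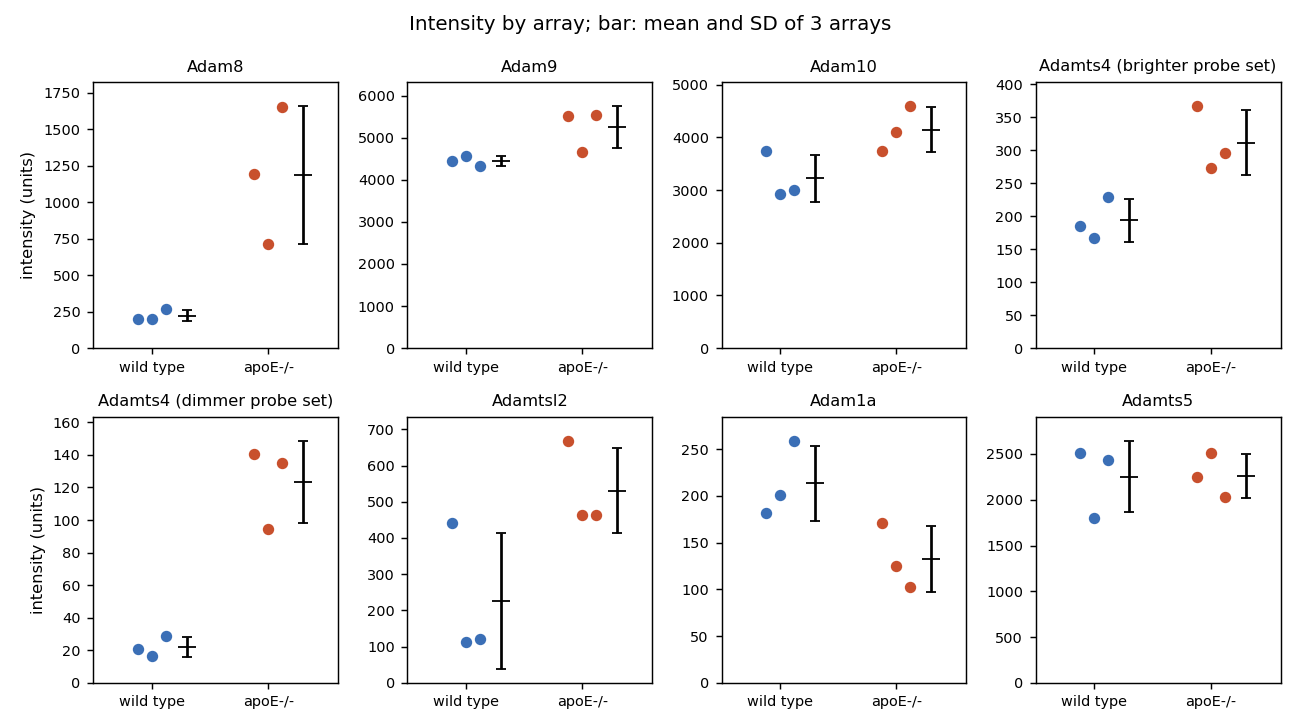
Intensity on each array, in intensity units with axes from 0, for 8 probe sets of the members, with wild type in blue, apoE-/- in orange, and the mean and SD of 3 arrays as a black bar beside each group. Adam8 and the dimmer Adamts4 probe set show the widest gaps between groups, the Adamtsl2 wild-type group is spread by 1 array at 442.7 units, and the Adamts5 groups overlap.

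ADAMs without an active catalytic site gave no call. Of 7 with a probe set 3 were tested, all with a negative change between -0.34 and -0.06. They were Adam11, Adam22 and Adam23, of which Adam22 and Adam23 are receptors for secreted neuronal proteins. Adam23 had the smallest p, with 161.7, 282.6 and 278.7 units in wild type and 235.6, 150.2 and 170 units in apoE-/-. Its groups overlapped, and the log2 change was -0.34 ± 0.26 (SE, limma adjusted p = 0.537). A further Adam23 probe set above the filter had a log2 change of -0.35 without overlap, at 238 ± 31.2 and 182 ± 8.16 units (SD, n = 3).

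Of the ADAMs known from the testis 12 had a probe set and 2 were tested, Adam1a and Adam4. Adam1a, which is also made outside the testis, gave 181.3, 200.8 and 258.4 units in wild type and 170.7, 125 and 102.1 units in apoE-/-. By the brightest probe set of each gene it was the only tested member whose apoE-/- arrays all lay below the wild-type arrays, the difference being -0.64 ± 0.24 in log2 (SE, limma adjusted p = 0.202). Adam4 had a log2 change of -0.15 with overlapping groups.

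The proteoglycan-cleaving ADAMTS enzymes held no called gene among 6 tested of 7. The median of the 6 was -0.03 in log2, with 2 positive values. Adamts4 had 2 probe sets. The brighter gave 184.5, 167.2 and 229.5 units in wild type and 366.4, 272.5 and 295.3 units in apoE-/-. All apoE-/- arrays were above all wild-type arrays, and the log2 change was 0.64 ± 0.18 (SE, limma adjusted p = 0.111), with a 95% interval from 0.22 to 1.06.

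The dimmer Adamts4 probe set lay below the filter, at a mean of 72.8 units over the 6 arrays. It gave 20.8, 16.8 and 28.8 units in wild type and 140.6, 94.7 and 134.8 units in apoE-/-. The lowest apoE-/- array read more than 3 times the highest wild-type array. In a fit of all 45037 probe sets without the filter, chosen after seeing the data, its log2 change was 1.87 ± 0.26 (SE, limma adjusted p = 0.0193). That fit called 2 of the 83 member probe sets, or 2.41%, this one and Adam8, where 1.11% of all probe sets were called higher. In this form of fit Adam8 in turn lost its call without the intensity trend, and without wild type replicate 1, 2 or 3 or apoE-/- replicate 1. The Adamts4 call was lost with a replicate block (adjusted p = 0.0556) and without any 1 array other than apoE-/- replicate 2, where the highest adjusted p was 0.0944. Adjusted p over all its alternatives ran from 0.0171 to 0.0944. The wild-type values are not shown to be above background, and the size moved from 1.11 with an offset of 64 to 2.44 with an offset of 1. Both probe sets of the gene were higher on every apoE-/- array, and which of them reads the transcript better was not tested.

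The other 5 were not called. Adamts5, the main aggrecanase of mouse cartilage, gave 2515, 1805 and 2432 units in wild type and 2250, 2508 and 2029 units in apoE-/-. Its log2 change was 0.02 ± 0.14 (SE, limma adjusted p = 0.961), with a 95% interval from -0.31 to 0.34, and its sign turned with array weights. The 2 further probe sets above the filter gave 0.13 and -0.04. Adamts1, a versican-cleaving protease of vessels, gave 1934 ± 52.3 and 1852 ± 210 units (SD, n = 3), with a log2 change of -0.07 ± 0.10. Adamts8 and Adamts15 had changes of -0.09 and -0.0025, and the 3 probe sets of Adamts9, which cleaves versican and aggrecan, all had small negative changes of -0.23, -0.28 and -0.27. The intervals of these 5 genes excluded a 2-fold change in either direction.

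Of the procollagen peptidases Adamts3 had 2 probe sets, both below the filter, at 65.6 to 112.2 units over all arrays. Adamts2 and Adamts14 were not analysed here. Among 4 of the other ADAMTS tested, Adamts10, which binds fibrillin microfibrils, had the smallest p. It gave 1575, 1262 and 1585 units in wild type and 1282, 1215 and 1134 units in apoE-/-, and its difference was -0.27 ± 0.12 in log2 (SE, limma adjusted p = 0.257). The groups overlapped narrowly, through wild type replicate 2. Adamts6, Adamts12 and Adamts16 had changes of 0.35, 0.19 and -0.15, all with overlapping groups. Adamts7, known from human genetics of coronary disease and as a protease of smooth muscle matrix, read between 6.7 and 23.3 units on the 6 arrays, so this probe set gave no usable level in either group.

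All 5 ADAMTS-like genes were tested and none was called. Adamtsl2, which binds fibrillin and a latency protein of TGF-beta, gave 442.7, 113.2 and 121.1 units in wild type and 667.1, 462.1 and 463.6 units in apoE-/-. The groups did not overlap, but wild type replicate 1 was almost at the level of the lower apoE-/- arrays. The log2 change was 1.42 ± 0.44 (SE, limma adjusted p = 0.138), and its SE was the largest of the 29 members. Without wild type replicate 1 the change was 2.02 and the gene was called (limma adjusted p = 0.00687), which made 2 called members. Adamtsl4, a fibrillin-binding protein known from the eye lens, gave 1642 ± 100.05 and 1387 ± 181 units (SD, n = 3), a change of -0.25 ± 0.11 (limma adjusted p = 0.296). Adamtsl3 had a change of -0.12 ± 0.13, Adamtsl5 of -0.19 and Adamtsl1 of 0.28, and their groups overlapped.

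**Figure D3:**
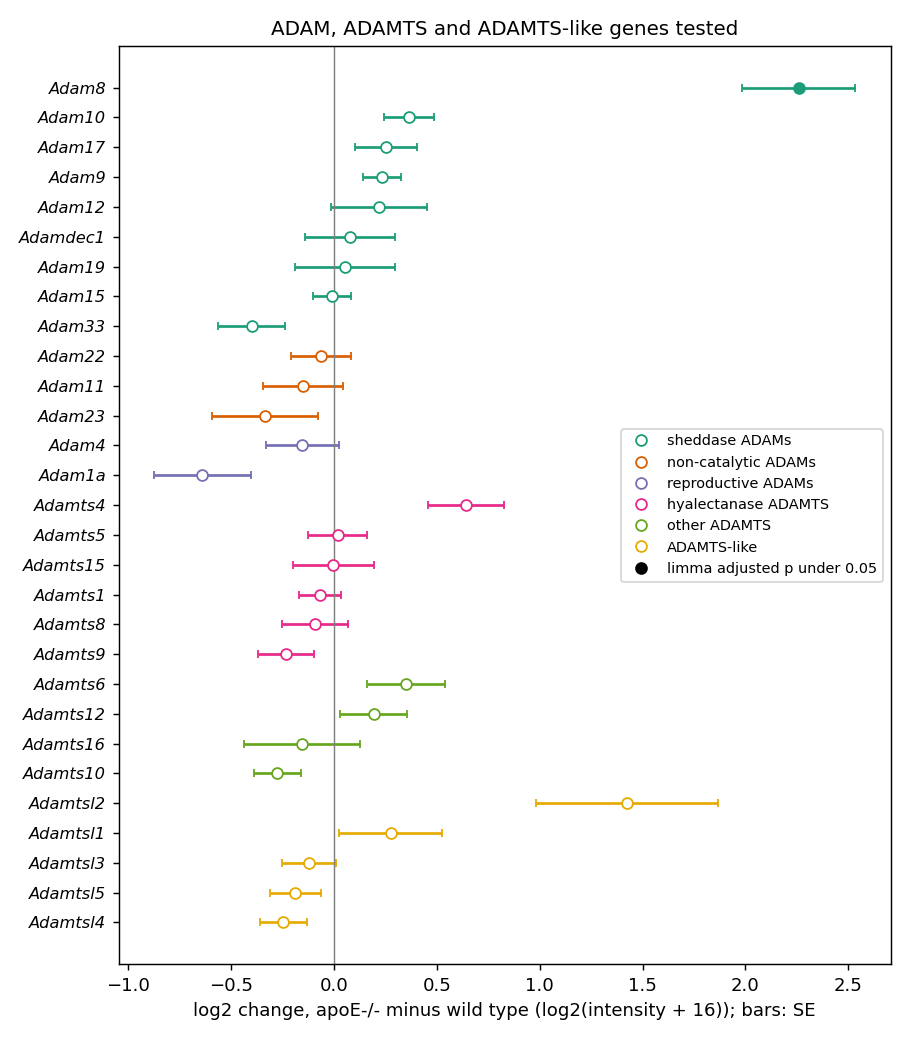
Log2 change (apoE-/- minus wild type, on log2(intensity + 16)) with its SE for the 29 member genes tested, coloured by role and ordered by size within each role. The filled point, Adam8 at 2.26, is the only one called, Adamtsl2 at 1.42 has the widest bar, and most others lie within 0.5 of 0.

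Across the 29 tested members, 6 had groups that did not overlap, or 20.7%, where all genes tested gave 24.7%. Of these 5 were higher (17.2% of members, 11% of all genes) and 1 was lower (3.45% of members, 13.7% of all genes). The 5 higher were Adam8, Adamts4, Adamtsl2, Adam10 and Adam9, of which 3 are sheddases. The SE of a log2 change ran from 0.09 to 0.44, with a median of 0.16, and in 25 of the 29 members the 95% interval lay inside 1 log2 on both sides.

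There were 12 members with more than 1 probe set above the filter, which served as a repeat reading of the gene on the same arrays. In 9 of 12 all probe sets had a change of the same sign. The 3 others were Adam11, Adam15 and Adamts5. In Adam11 the brighter probe set gave -0.15 and the dimmer 0.17, and in Adam15 the dimmest of 4 gave 0.39 while the brightest gave -0.01. No probe set of these 12 genes passed the test on its own.

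**Figure D4:**
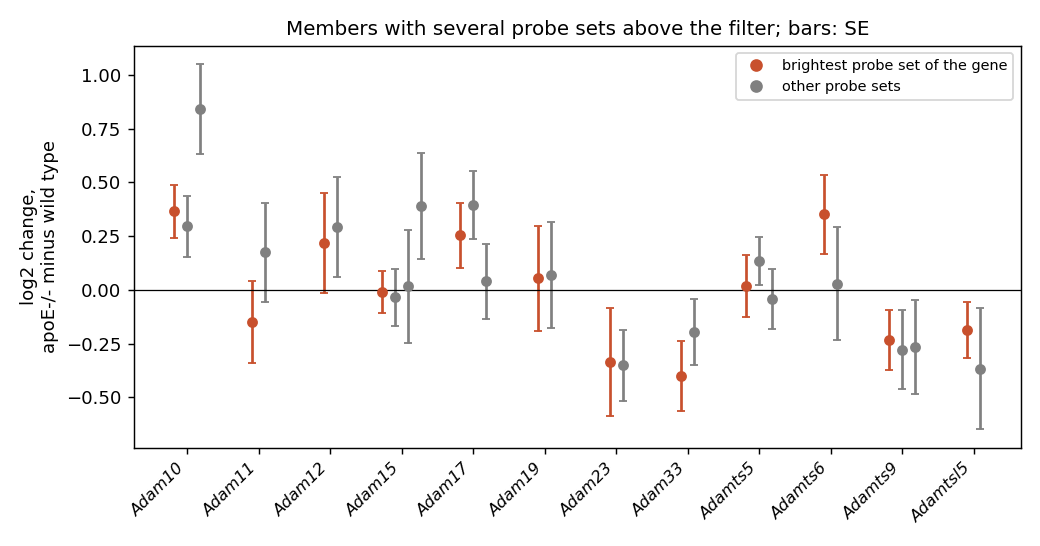
Log2 change (apoE-/- minus wild type) with its SE for every probe set above the filter of the 12 members that have several, with the brightest in orange and the others in grey, from left to right by brightness. The 3 Adam10 points and the 3 Adam17 points are all above 0, those of Adam23, Adam33, Adamts9 and Adamtsl5 are all below 0, and Adam11, Adam15 and Adamts5 straddle it.

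The remaining 20 genes had no probe set above the filter and were not tested. Their 26 probe sets had means between 6.40 and 124 units, with a median of 28.8 units. Most are ADAMs known from the testis or epididymis, such as Adam2, Adam3, Adam5 and Adam24, together with Adam28, Adamts3, Adamts7, Adamts18, Adamts19 and Adamts20. Of all 36 member probe sets below the filter 1 had apoE-/- arrays all above the wild-type arrays, or 2.78% where all such probe sets gave 5.23%, and 4 had them all below, or 11.1% where all gave 8.63%. These shares are close to the background.

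Beside the proteases stand their inhibitors. Of 7 listed 5 were tested, with 1 called higher, 0 lower and a median log2 change of 0.03. Over all genes tested 3.19% were called higher and 0.467% lower, with a median of -0.05. Timp1, a secreted inhibitor of metalloproteinases that also blocks ADAM10, gave 733.3, 1005 and 796 units in wild type and 6426, 3070 and 4532 units in apoE-/-. The groups were far apart, and the log2 change was 2.39 ± 0.24 (SE, limma adjusted p = 0.0018). Timp3, the inhibitor of ADAM17 and of the aggrecanases, had a change of 0.03 ± 0.13 with overlapping groups. Timp2, Reck and Timp4 had log2 changes of 0.24, -0.17 and -0.42, none of them called.

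Partners that mature, carry or anchor ADAMs held 1 called gene of 14 tested, with 0 lower and a median log2 change of -0.13. The share called higher over all genes was 3.19%, and the share called lower 0.467%. Sh3pxd2b, an adaptor of podosomes whose family binds ADAM12, ADAM15 and ADAM19, gave 649.2, 688 and 584 units in wild type and 1263, 1029 and 1243 units in apoE-/-. The log2 change was 0.86 ± 0.12 (SE, limma adjusted p = 0.00698), and its groups were far apart. Its relative Sh3pxd2a had a change of -0.22. Tspan14, a tetraspanin that carries ADAM10, had a change of 0.43 ± 0.11 (limma adjusted p = 0.0916). Furin, which removes the inhibitory prodomain of many ADAMs, had a change of 0.16, and Rhbdf1, a partner of ADAM17, one of -0.09.

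Membrane proteins known to be shed by ADAM10, ADAM17 or ADAM8 held 9 called of 25 tested, all higher, against 3.19% of all genes. The list was chosen with earlier results of these data known, so its count beside that share is no test of the list. The median log2 change was 0.18. The macrophage markers moved with this list, with 8 of 10 called higher at a median of 1.36 in log2, and their part in the count was not tested. Both lists hold Csf1r and Cd163, neither of them called. Trem2, a lipid-sensing receptor of macrophages, gave 17, 30.7 and 34 units in wild type and 719.7, 473.9 and 1094 units in apoE-/-, a rise of 4.11 ± 0.32 in log2 (SE, limma adjusted p = 0.000693). Its wild-type values lay under the filter at 124 units and may be no more than background, so it was tested only through its apoE-/- values and the size of the rise depends on the offset. Vcam1, which holds leukocytes on endothelium, rose by 1.73 ± 0.16 in log2 (SE, limma adjusted p = 0.00127). Cxcl16, a membrane-bound chemokine and scavenger receptor, rose by 1.56 ± 0.18 (limma adjusted p = 0.00323). Tnfrsf1b, the inducible receptor of tumour necrosis factor, was called at 1.26 ± 0.23 (limma adjusted p = 0.0238), but the call was lost in 7 of 17 alternatives, the replicate block and 4 omissions of an array among them, with adjusted p up to 0.110. The other 5 called were Cx3cl1, Cd44, Icam1, Sdc1 and Selp. The calls of Cd44, Icam1 and Selp were lost without apoE-/- replicate 1, that of Selp also without apoE-/- replicate 3, and that of Sdc1 with the median of its probe sets.

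The substrate count moved with single apoE-/- arrays, to 5 of 25 without replicate 1, 7 without replicate 3 and 11 without replicate 2. Calls over all genes moved in the same fits, from 416 higher with all arrays to 143, 194 and 554. The movement is therefore not particular to this list. The remaining substrates included Notch1 at 0.05, Jag1 at 0.12 and Hbegf at -0.17, none of them called. Transcript levels of a substrate say nothing of how much of it was shed.

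Matrix substrates of the ADAMTS enzymes held 1 called gene of 15 tested, with 0 lower and a median log2 change of 0.12. Beside this, 3.19% of all genes were called higher and 0.467% lower. Col2a1, the collagen of cartilage, gave 89.5, 79.7 and 98.4 units in wild type and 2254, 1478 and 468.3 units in apoE-/-, a rise of 3.49 ± 0.48 in log2 (SE, limma adjusted p = 0.00629). Its wild-type values too lay under the filter at 124 units and may be no more than background, so this call also came only through the apoE-/- values. The order of the apoE-/- arrays was not that of Adam8, with replicate 1 highest and replicate 3 lowest. Comp, a cartilage matrix protein cleaved by ADAMTS7 and ADAMTS12, stood in the same order, at 4424, 2683 and 1510 units in apoE-/-, and was not called (log2 change 1.08 ± 0.32, limma adjusted p = 0.122). Acan, the aggrecan core protein, had a change of 0.53 with overlapping groups. Vcan, the versican core protein and the main large proteoglycan of the vessel wall, gave 3288, 3115 and 3354 units in wild type and 2758, 2740 and 2683 units in apoE-/-. Its groups did not overlap, and the change was -0.25 ± 0.08 (limma adjusted p = 0.139). Without apoE-/- replicate 3, 3 matrix substrates were called, and without apoE-/- replicate 2, 2 were. The count was also 2 with quantile normalization, with array weights and with the median of the probe sets of a gene.

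**Figure D5:**
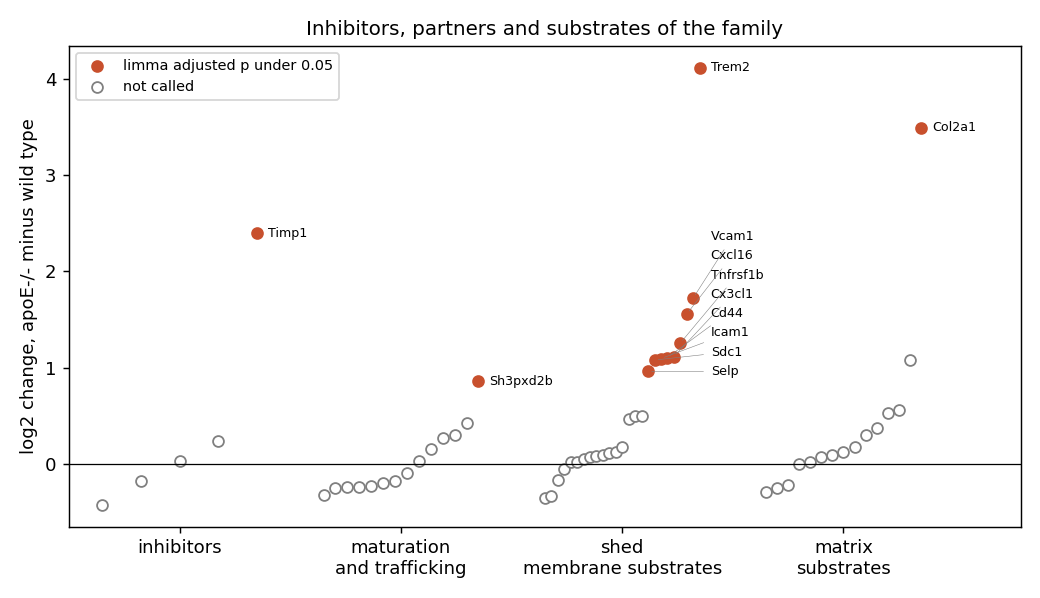
Log2 change (apoE-/- minus wild type) of every tested gene in 4 lists of inhibitors, partners, shed membrane substrates and matrix substrates, ordered by size within each list, with called genes filled and named. Of the shed substrates 9 of 25 are filled, all above 0, while the other lists hold 1 filled point each.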

How the data were processed

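Per the labels, total RNA of whole aorta was measured on 3 wild-type and 3 apoE-/- arrays. The authors deposited a linear intensity for every probe set on every array. Its software is not given in the sources used here. A test of the columns showed that each array had a mean of 500.002 after trimming 2% of probe sets at each end, so the authors had scaled the arrays to one level. The table holds no detection calls.

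Probe sets were named from the platform annotation, which can be old, and symbols were updated through gene identifiers to those of GRCm38.p6. Of 45101 probe sets 34958 carried 1 symbol, 932 carried several and were not named, and 9211, controls included, had no entry; 5 with an ADAM symbol among several were left out. After removal of 64 controls and of the lower 40% by mean over all 6 arrays (means up to 124 units), 27022 probe sets remained. Each gene was represented by the remaining probe set of highest mean. Values were tested as log2(intensity + 16), which understates changes of dim genes. Genotype was the only term in limma 3.58.1 (R 4.3.3; lmFit, eBayes with an intensity trend), with Benjamini-Hochberg adjustment over 13052 genes. Every adjusted p is from this tool, and with 3 arrays against 3 an exact permutation test cannot go below 0.1. The number of arrays limits the precision. On simulated data for this comparison and these 13052 genes, 88% of genes changed 2-fold and 99% changed 4-fold were recovered. Of 201 calls there 14 were false. The simulated noise was independent for each gene and array, so these shares do not cover deviations that many genes of an array have in common.

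Members, role groups and related lists were chosen with earlier results of these data known. Named in full are called members, the 8 of highest mean, the smallest p of each role, and for each related list up to 4 called genes or the smallest p; further genes were named after their values were seen. Intensities of different probe sets are not compared as levels. Alternatives were offsets of 1 and 64, quantile normalization, median centring, no filter or a 60% filter, no trend, array weights, the median or each probe set of a gene, a replicate block, and leaving out each array. Lists of other cell types gave 1 of 8 endothelial, 1 of 8 fibroblast and 1 of 2 T cell genes called, all of them higher. The lists gave 0 of 3 B cell, 0 of 8 smooth muscle, 0 of 7 skeletal muscle, 0 of 4 adipocyte and 0 of 1 germ cell genes called. The changes of the smooth muscle genes were all negative, at a median of -0.14 in log2, and 1 was called lower without apoE-/- replicate 2. Those of the tested skeletal muscle and adipocyte genes were all negative too. Over all 13052 genes tested 5379 had a positive change. The share called higher over all genes was 3.19%.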

Additional observations from a re-analysis of the deposited data

How the results depend on the processing

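Of 17 alternatives, Adam8 was the called member in all, with log2 changes from 1.98 to 2.58 and limma adjusted p from 0.000576 to 0.0320. The count of members called higher was 1 in 16 of the 17; leaving out single arrays gave 1 to 2, the 2 without wild type replicate 1, where Adamtsl2 was added. No member was called lower in any. Related genes called higher numbered 12, with 8 to 15 across the alternatives. The sign of the Adam15 change turned with median centring (0.016), and leaving out single arrays gave -0.047 to 0.058, above 0 without wild type replicate 1 or apoE-/- replicate 1. That of Adamts5 turned with array weights (-0.058), and leaving out single arrays gave -0.13 to 0.10, below 0 without wild type replicate 2 or apoE-/- replicate 2; the cause was not tested. The other 11 members named by the rule kept their direction in every alternative that tested them. Replicate numbers are shared by the genotypes, but in 0 of 3 same-numbered pairs did deviations correlate above 0.1 and 0 of 6 arrays correlated best with its own number, so the numbers were not taken as pairs. With the replicate block 1 member, Adam8, and 314 of all genes were called, against 477 without it. Without single arrays, all genes called higher ranged from 143 (without apoE-/- replicate 1) to 554 (without apoE-/- replicate 2), beside 416 with all arrays. Without the intensity trend 273 were called higher and 24 lower, and genes called lower ranged from 11 to 141 over the alternatives, beside 61. Intensities without detection calls limit what can be said of the 20 genes under the filter.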
